A study of Mus musculus with 48 samples.

Results

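The insulin action and glucose uptake genes examined here are 9 protein-coding genes chosen by symbol: Slc2a4, Slc2a1, Insr, Irs1, Irs2, Akt2, Pck1, Hk2 and Angptl8. Each symbol matched 1 of the 55487 genes in the deposited table, and all 9 were among the 20209 genes that reached 1 TPM (a transcript abundance scaled for transcript length and library total) in at least 3 libraries. The tissue was whole thoracic mammary gland. All mice had an rtTA activator that needs doxycycline and is driven by the promoter of mouse mammary tumour virus (MMTV-rtTA), together with a tet-op responder gene. Esr1, the gene for estrogen receptor alpha, was the responder in one model, and CYP19A1, the gene for the estrogen-making enzyme aromatase, in the other. In each model, 3 libraries were made from glands induced for 1 week at 12 months of age, for 1 week at 18 months, for 6 months at 24 months, for 12 months at 24 months and for 18 months at 30 months. A further 3 libraries each came from uninduced glands at 12, 18 and 24 months. Every mouse in these groups carries the MMTV-rtTA and responder transgenes. No group induced without a responder is analysed here, so the inducing drug and the transgene cannot be told apart, and neither is an uninduced group of 30 months. Whole gland RNA holds adipocytes, epithelium and other cells. In such bulk samples, fewer cells of a type and less RNA per cell cannot be told apart.

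Insulin binds its receptor, Insr, which phosphorylates the adaptors Irs1 and Irs2. These recruit phosphoinositide 3-kinase, which leads to activation of the kinase Akt2. In fat and muscle Akt2 brings vesicles with the glucose transporter GLUT4 (Slc2a4) to the cell surface, where glucose enters and is phosphorylated by hexokinase 2 (Hk2). GLUT1 (Slc2a1) carries glucose into most cells without insulin and is the main transporter of lactating mammary epithelium. In adipocytes Pck1, phosphoenolpyruvate carboxykinase, makes the glycerol backbone on which fatty acids are stored. Angptl8 is a secreted factor that feeding and insulin raise in fat and liver, and it takes part in the control of lipoprotein lipase.

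The 48 libraries differ in tissue makeup and in residual ribosomal RNA. The defining fat genes were present in all 48 libraries, with Adipoq, the adiponectin gene, between 184 and 985 TPM, and so were the luminal keratin genes, with Krt8 between 15.96 and 164 TPM. Acta1, the skeletal muscle actin gene, ranged from 48.6 to 8710 TPM, and 12 skeletal muscle genes summed to between 169 and 42800 TPM. Genes that collect ribosomal RNA reads held over 10% of TPM in 9 libraries. Of these, 2 were long-induced Esr1 libraries (33.4% and 50.3%), and 7 were CYP19A1 libraries that were uninduced or induced for 1 week (15.6% to 67.2%). The rows of the responder genes themselves did not mark induction. The Esr1 row held 6.39 to 25.9 TPM in 15 induced and 8.88 to 16.3 TPM in 9 uninduced glands of the Esr1 model, and 6.14 to 21 TPM in 15 induced and 5.61 to 17.6 TPM in 9 uninduced glands of the CYP19A1 model. The Cyp19a1 row held at most 0.29 TPM in any library. Whether these rows count reads of the transgenes is not given in the sources used here, so they do not check the labels of induction. High ribosomal shares lower the TPM of all other genes in those libraries. Rescaling by median-of-ratios factors (0.326 to 1.40) offsets them and was run as an alternative.

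The members span a wide range of abundance. Pck1 was the most abundant, with a mean of 229 TPM over the 48 libraries (55.0 to 740.6 TPM), followed by Slc2a4 at 57.2 TPM (22.4 to 107) and Akt2 at 51.7 TPM (24.7 to 86.8). Hk2 averaged 28.3 TPM (9.65 to 61.4), Insr 25.6 TPM (10.1 to 48.6) and Irs1 21.3 TPM (7.19 to 43.9). Angptl8 averaged 11.4 TPM with the widest span (1.06 to 114), Irs2 averaged 10.7 TPM (1.79 to 22.8) and Slc2a1 6.6 TPM (1.75 to 11.1). Within this gland the insulin-dependent transporter gene Slc2a4 was thus the more abundant of the transporter pair in every group, by group means of the within-library ratio to Slc2a1 between 4.85 and 15.6.

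**Figure D1:**
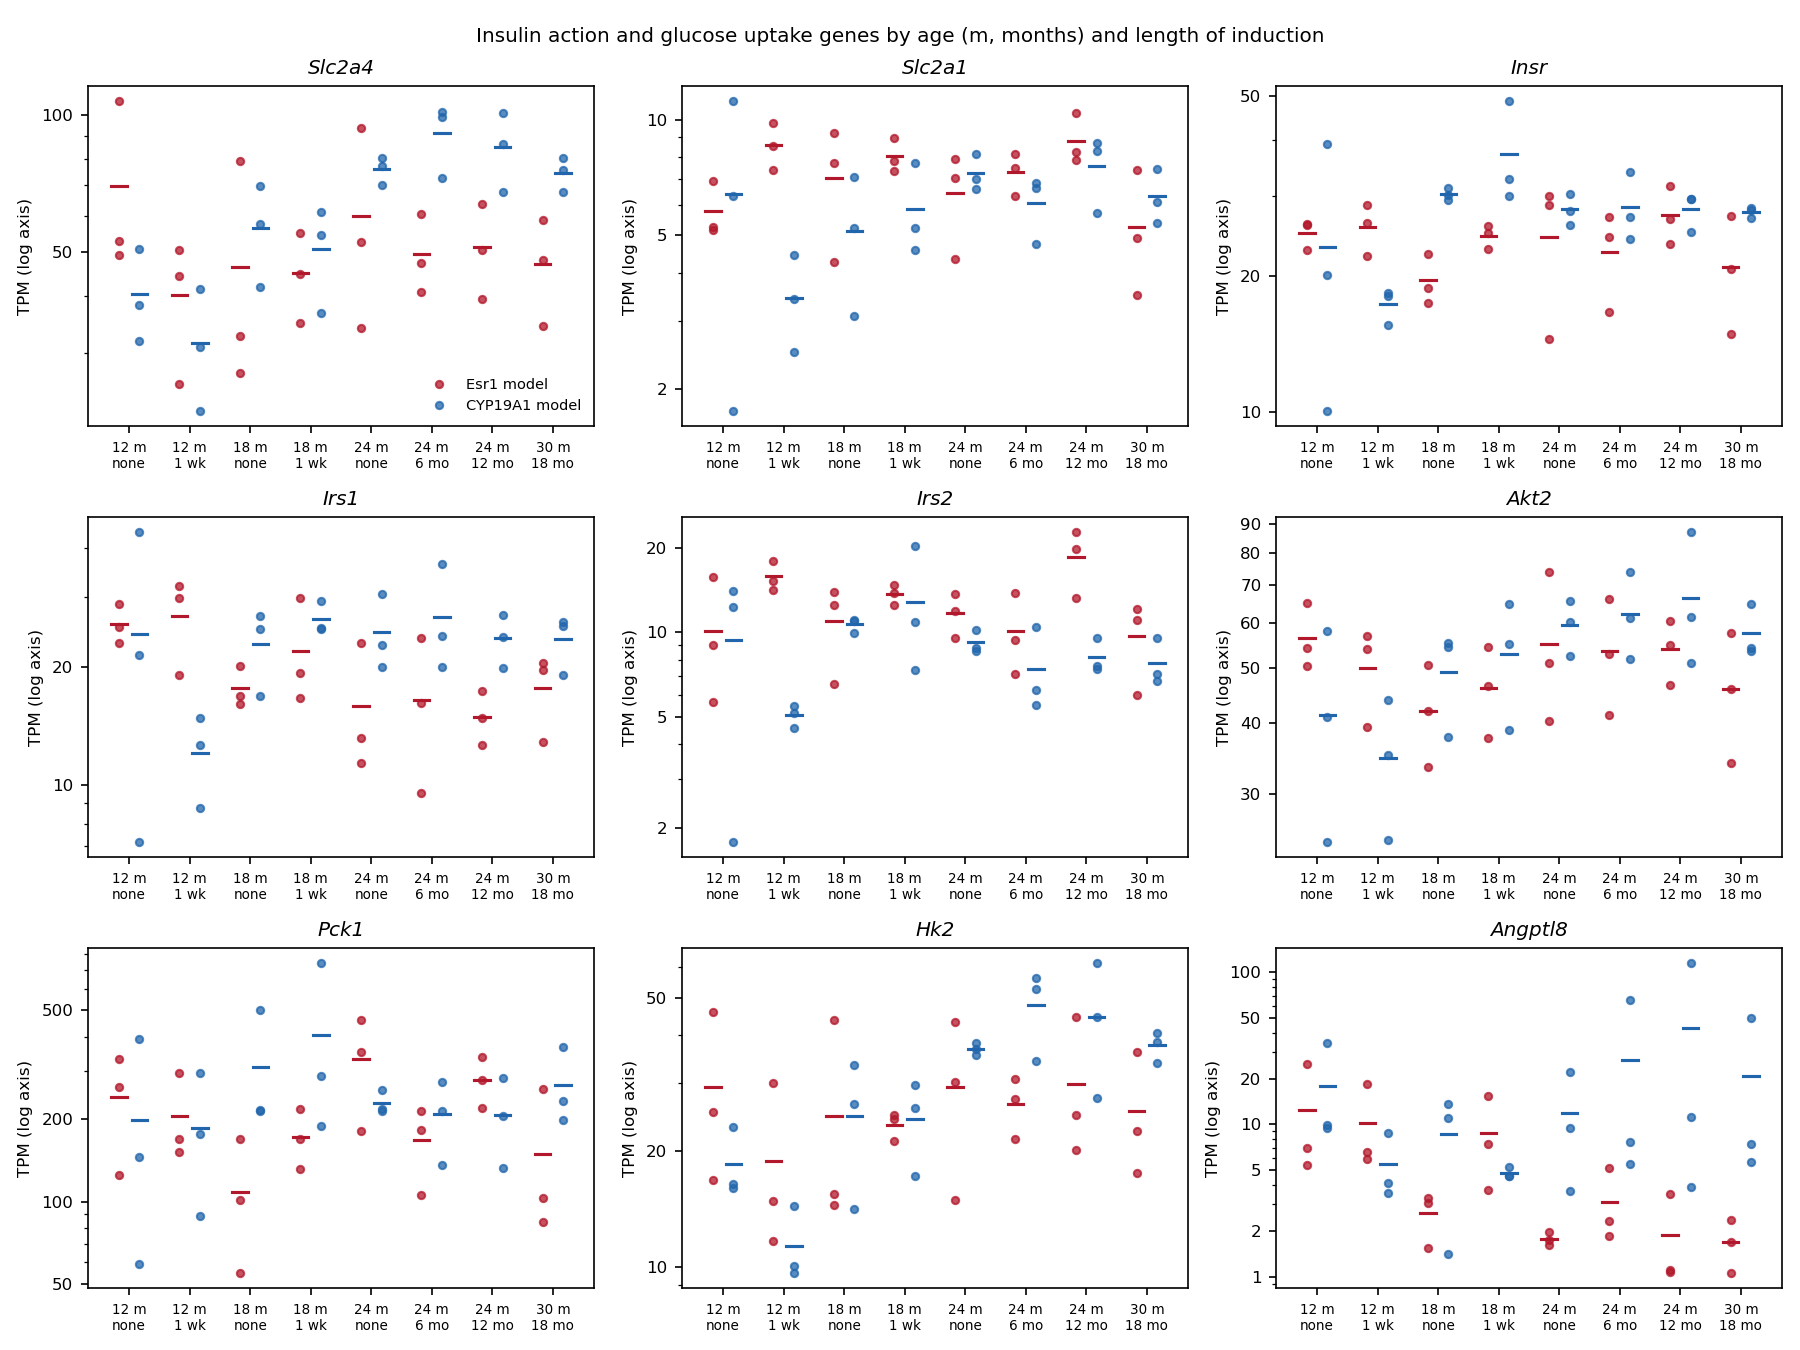
TPM (log axis) of the 9 genes in each of 48 libraries, by age in months (m) and length of induction (none, weeks or months), with Esr1 libraries in red and CYP19A1 libraries in blue; points are libraries and bars are group means (n = 3). Slc2a4 and Angptl8 of the Esr1 model lie low beside the CYP19A1 model in the 3 rightmost stages. Irs2 of the Esr1 model lies above the CYP19A1 model after 12 months of induction, and the models overlap in it after 6 and 18 months.

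The glucose transporter genes are described first. Slc2a4 (ENSMUSG00000018566.14, chromosome 11, 69942539 to 69948188, minus strand, mm10) encodes GLUT4. After 6 months of induction at 24 months, Slc2a4 read 60.7, 47.4 and 40.8 TPM in Esr1 glands, against 99, 72.8 and 101 TPM in CYP19A1 glands. After 12 months it read 63.6, 50.6 and 39.4 TPM in Esr1 glands, against 101, 67.9 and 86.5 TPM in CYP19A1 glands. After 18 months it read 48, 58.8 and 34.4 TPM in Esr1 glands, against 80.3, 75.5 and 67.8 TPM in CYP19A1 glands. At each of these stages every Esr1 library lay below every CYP19A1 library, and so did all 9 against all 9 (34.4 to 63.6 against 67.8 to 101 TPM). The share of all genes that separate in this way is not given here. Over the long-induced glands Slc2a4 was lower in the Esr1 model, at 49.3 ± 10.2 TPM against 83.6 ± 13.9 TPM in the CYP19A1 model (SD, n = 9; log2 change -0.76, SE 0.20, 95% interval -1.17 to -0.35, limma adjusted p = 0.0218). The same test passed for 839 of 20209 genes, or 4.15%, of which 601 were lower in Esr1 glands, and it passed for 2 of the 9 members. The Slc2a4 call was lost after median-of-ratios rescaling (log2 change -0.60, limma adjusted p = 0.104) and without the 9 libraries rich in ribosomal RNA (-0.65, adjusted p = 0.0962). It was also lost when 1 of 5 single libraries was left out: Esr1 replicate 3 after 6, 12 or 18 months, CYP19A1 replicate 3 after 6 months or CYP19A1 replicate 1 after 12 months (log2 change -0.69 to -0.73, adjusted p up to 0.064).

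In glands that were uninduced or induced for 1 week, Slc2a4 did not separate the models. Uninduced at 12 months it read 107, 49.2 and 52.9 TPM in Esr1 glands, against 32, 50.8 and 38.3 TPM in CYP19A1 glands. After 1 week at that age it read 50.4, 25.7 and 44.3 TPM in Esr1 glands, against 41.4, 22.4 and 31 TPM in CYP19A1 glands. The libraries of the models overlapped at both, and Esr1 replicate 1 at 107 TPM was the highest of all 48. Uninduced at 18 months it read 32.6, 27.1 and 79.1 TPM in Esr1 glands, against 41.9, 69.9 and 57.6 TPM in CYP19A1 glands. After 1 week at 18 months it read 55.2, 44.8 and 34.9 TPM in Esr1 glands, against 36.8, 54.4 and 61.2 TPM in CYP19A1 glands. Uninduced at 24 months it read 52.5, 93.8 and 34.1 TPM in Esr1 glands, against 77.4, 80.5 and 70.2 TPM in CYP19A1 glands. These 3 stages overlapped as well, and the Esr1 libraries of 24 months were spread more widely than the CYP19A1 ones. Averaged over the uninduced ages, the model difference in Slc2a4 was -0.05 on the log2 scale (95% interval -0.46 to 0.36, limma adjusted p = 0.915). Among the 16 group means the 4 highest were the 24- and 30-month CYP19A1 groups, and no neighbours in that order differed by more than the larger of their SDs.

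Slc2a1 (ENSMUSG00000028645.11, chromosome 4, 119108711 to 119137983, plus strand) encodes GLUT1. In Esr1 glands Slc2a1 averaged 5.78 ± 0.994, 7.05 ± 2.53 and 6.43 ± 1.86 TPM uninduced at 12, 18 and 24 months, 8.57 ± 1.21 and 8.04 ± 0.831 TPM after 1 week at 12 and 18 months, 7.31 ± 0.902 and 8.81 ± 1.37 TPM after 6 and 12 months at 24 months, and 5.27 ± 1.98 TPM after 18 months at 30 months (SD, n = 3 each). In CYP19A1 glands Slc2a1 averaged 6.4 ± 4.7, 5.13 ± 2 and 7.25 ± 0.817 TPM uninduced at 12, 18 and 24 months, 3.45 ± 0.976 and 5.84 ± 1.67 TPM after 1 week at 12 and 18 months, 6.08 ± 1.15 and 7.55 ± 1.62 TPM after 6 and 12 months at 24 months, and 6.31 ± 1.05 TPM after 18 months at 30 months (SD, n = 3 each). The highest mean was in Esr1 glands after 12 months of induction and the lowest in CYP19A1 glands after 1 week at 12 months, and no neighbours in the order of the 16 means differed by more than the larger of their SDs. The libraries of that lowest group held 36.7% to 49.8% of TPM in ribosomal RNA genes, which lowers the TPM of other genes. Long-induced glands gave 3.49, 7.48 and 10.4 TPM over the 9 long-induced Esr1 libraries, against 4.76, 6.65 and 8.67 TPM over the 9 long-induced CYP19A1 libraries (lowest, median and highest). The models overlapped almost wholly, with a log2 change of 0.06 (95% interval -0.32 to 0.44, limma adjusted p = 0.898). Within a library Slc2a4 was 7.38 ± 2.38 times as abundant as Slc2a1 in long-induced Esr1 glands and 13 ± 3.51 times in long-induced CYP19A1 glands (SD, n = 9). This ratio does not depend on library scaling. Its ranges overlapped (4.79 to 12.0 against 9.11 to 20.8).

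The receptor gene Insr (ENSMUSG00000005534.10, chromosome 8, 3122061 to 3279617, minus strand) was among the steadier members. In Esr1 glands Insr averaged 24.9 ± 1.82, 19.5 ± 2.57 and 24.4 ± 8.6 TPM uninduced at 12, 18 and 24 months, 25.7 ± 3.36 and 24.5 ± 1.45 TPM after 1 week at 12 and 18 months, 22.6 ± 5.37 and 27.2 ± 4.04 TPM after 6 and 12 months at 24 months, and 20.9 ± 6.18 TPM after 18 months at 30 months (SD, n = 3 each). In CYP19A1 glands Insr averaged 23.1 ± 14.8, 30.3 ± 0.913 and 28.1 ± 2.21 TPM uninduced at 12, 18 and 24 months, 17.3 ± 1.5 and 37.1 ± 10.1 TPM after 1 week at 12 and 18 months, 28.4 ± 5.09 and 28.1 ± 2.64 TPM after 6 and 12 months at 24 months, and 27.7 ± 0.706 TPM after 18 months at 30 months (SD, n = 3 each). The 4 highest means were CYP19A1 groups of 18 and 24 months, and the lowest was that of CYP19A1 glands after 1 week at 12 months, whose 3 libraries held 36.7% to 49.8% of TPM in ribosomal RNA genes. In the long-induced comparison Insr had 14.8, 24.3 and 31.6 TPM over the 9 long-induced Esr1 libraries, against 24.1, 27.9 and 34 TPM over the 9 long-induced CYP19A1 libraries (lowest, median and highest). The ranges overlapped (log2 change -0.27, 95% interval -0.60 to 0.07, limma adjusted p = 0.417). In uninduced glands the change was -0.19 (95% interval -0.53 to 0.14, adjusted p = 0.554), where 2.95% of all genes and 0 of 9 members passed with limma, and 1 member, Angptl8, had an unadjusted p under 0.05. Insr passed there as lower in the Esr1 model after median-of-ratios rescaling (-0.36, limma adjusted p = 0.0348). It also passed when TPM were taken over nuclear protein-coding genes only (-0.53, adjusted p = 0.00378). Without the libraries rich in ribosomal RNA it was at -0.53, with only replicate 2 left of the uninduced CYP19A1 glands of 12 months. All genes that passed between the uninduced models numbered 596 on the deposited scale (398 higher and 198 lower in Esr1), 3392 or 16.8% after rescaling (1563 higher, 1829 lower), 3583 over nuclear protein-coding TPM (476 higher, 3107 lower) and 2569 or 12.7% without the libraries rich in ribosomal RNA (262 higher, 2307 lower).

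The adaptor genes Irs1 and Irs2 lay on opposite sides in the long-induced glands, though neither passed on the deposited scale. Irs1 (ENSMUSG00000055980.2, chromosome 1, 82233101 to 82291416, minus strand) encodes the adaptor that carries much of the insulin signal in fat and muscle. In Esr1 glands Irs1 averaged 25.7 ± 2.92, 17.7 ± 2.13 and 15.9 ± 6.24 TPM uninduced at 12, 18 and 24 months, 26.9 ± 6.96 and 21.9 ± 7.01 TPM after 1 week at 12 and 18 months, 16.5 ± 7.02 and 14.9 ± 2.34 TPM after 6 and 12 months at 24 months, and 17.6 ± 4.14 TPM after 18 months at 30 months (SD, n = 3 each). In CYP19A1 glands Irs1 averaged 24.2 ± 18.5, 22.9 ± 5.35 and 24.4 ± 5.52 TPM uninduced at 12, 18 and 24 months, 12.1 ± 3.08 and 26.5 ± 2.56 TPM after 1 week at 12 and 18 months, 26.8 ± 8.61 and 23.6 ± 3.63 TPM after 6 and 12 months at 24 months, and 23.5 ± 3.83 TPM after 18 months at 30 months (SD, n = 3 each). Of the uninduced Esr1 groups, the youngest had the highest mean. Irs2 (ENSMUSG00000038894.7, chromosome 8, 10984681 to 11008458, minus strand) encodes the adaptor known best for insulin signalling in liver and beta cells. In Esr1 glands Irs2 averaged 10.1 ± 5.16, 11 ± 3.96 and 11.7 ± 2.1 TPM uninduced at 12, 18 and 24 months, 15.9 ± 1.96 and 13.7 ± 1.13 TPM after 1 week at 12 and 18 months, 10.1 ± 3.44 and 18.6 ± 4.87 TPM after 6 and 12 months at 24 months, and 9.72 ± 3.29 TPM after 18 months at 30 months (SD, n = 3 each). In CYP19A1 glands Irs2 averaged 9.41 ± 6.65, 10.7 ± 0.616 and 9.22 ± 0.886 TPM uninduced at 12, 18 and 24 months, 5.06 ± 0.443 and 12.9 ± 6.72 TPM after 1 week at 12 and 18 months, 7.4 ± 2.64 and 8.18 ± 1.17 TPM after 6 and 12 months at 24 months, and 7.79 ± 1.52 TPM after 18 months at 30 months (SD, n = 3 each). Its highest mean was in Esr1 glands after 12 months of induction, and 3 of the 4 highest means were Esr1 groups. Among its 15 neighbour pairs 1 differed by more than the larger SD, Esr1 glands after 1 week at 12 months over those at 18 months, and among those of Irs1 none did.

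Irs1 had 9.59, 16.2 and 23.6 TPM over the 9 long-induced Esr1 libraries, against 19.1, 24 and 36.5 TPM over the 9 long-induced CYP19A1 libraries (lowest, median and highest). These ranges overlapped (log2 change -0.58, SE 0.21, 95% interval -1.01 to -0.15, unadjusted p = 0.0093, limma adjusted p = 0.118). Irs2 had 5.97, 12.1 and 22.8 TPM over the 9 long-induced Esr1 libraries, against 5.52, 7.39 and 10.4 TPM over the 9 long-induced CYP19A1 libraries (lowest, median and highest). The Esr1 libraries reached higher and the ranges overlapped (log2 change 0.58, SE 0.23, 95% interval 0.11 to 1.04, unadjusted p = 0.0168, limma adjusted p = 0.162). Median-of-ratios rescaling moved the median change of all genes in this comparison by 0.115, to about 0. After it both adaptors passed, Irs1 as lower (-0.42, limma adjusted p = 0.0458) and Irs2 as higher (0.72, adjusted p = 0.000909) in long-induced Esr1 glands. The split of all calls moved with the rescaling, to 1066 higher and 898 lower, against 238 higher and 601 lower on the deposited scale. Without the libraries rich in ribosomal RNA Irs2 passed (0.74, adjusted p = 0.021), and with the luminal score as a covariate Irs1 did (-0.80, adjusted p = 0.00557). Of all genes, 9.72% passed after rescaling, 4.03% without those libraries and 25.8% with the luminal score. With that score Irs2 was at 0.27 (adjusted p = 0.243), against 0.58 without it. Within a library, where scaling cancels, Irs2 was 0.822 ± 0.394 times as abundant as Irs1 in long-induced Esr1 glands and 0.319 ± 0.0517 times in long-induced CYP19A1 glands (SD, n = 9). All 9 Esr1 libraries (0.400 to 1.57) lay above all 9 CYP19A1 libraries (0.259 to 0.383) in this ratio. In uninduced glands the ratio was 0.596 ± 0.238 in the Esr1 model and 0.422 ± 0.138 in the CYP19A1 model, and the libraries overlapped (0.245 to 0.903 against 0.249 to 0.656). The ratio was chosen after the values were seen and is given without a test.

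The stretch of 250 bases before the transcription start, from RefSeq (build GRCm38.p6, mm10), is shown for the members that passed between the long-induced models on either scale and have an entry there. Capitals mark matches, on either strand, to 6 short motifs: CACGTG (an E-box), GTAAACA (a forkhead motif), AGGTCA (a nuclear receptor half-site), GGGCGG (a GC box), CCAAT and TGACG (the core of a cyclic AMP response element).
Irs1, chr1:82291440-82291689, minus strand: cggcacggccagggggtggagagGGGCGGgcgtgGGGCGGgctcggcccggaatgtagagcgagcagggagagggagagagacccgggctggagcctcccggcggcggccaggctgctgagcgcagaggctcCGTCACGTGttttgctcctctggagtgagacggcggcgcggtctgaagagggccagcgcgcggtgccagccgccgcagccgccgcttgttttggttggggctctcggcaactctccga
Irs2, chr8:11008930-11009179, minus strand: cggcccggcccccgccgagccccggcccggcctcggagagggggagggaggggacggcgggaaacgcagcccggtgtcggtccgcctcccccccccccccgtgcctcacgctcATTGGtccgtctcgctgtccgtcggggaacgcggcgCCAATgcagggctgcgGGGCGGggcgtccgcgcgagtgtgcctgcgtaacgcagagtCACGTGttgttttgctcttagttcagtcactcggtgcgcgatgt
Angptl8, chr9:21835260-21835509, plus strand: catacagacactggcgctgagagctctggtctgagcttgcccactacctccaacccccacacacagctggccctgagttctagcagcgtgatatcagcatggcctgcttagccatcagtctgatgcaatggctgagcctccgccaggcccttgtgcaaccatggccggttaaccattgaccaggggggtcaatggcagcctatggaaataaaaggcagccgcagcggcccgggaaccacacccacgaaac
Both adaptor promoters hold 1 CACGTG, which 6.02% of 32851 promoters of this length hold, and in Irs1 it overlaps a TGACG match. Irs1 has 2 GGGCGG matches and Irs2 has 1, a motif in 32.7% of promoters, and Irs2 has 2 CCAAT matches, a motif in 33.8%. TGACG is in 17.8% of promoters. No match to any of the 6 motifs lies in the Angptl8 window, and none to AGGTCA (14% of promoters) or GTAAACA (3.17%) in any of the 3. The RefSeq start lies 23 bases from that of GENCODE for Irs1 and 471 bases for Irs2, and at the same base for Angptl8. A match is a stretch of letters and was not tested for binding.

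Akt2 (ENSMUSG00000004056.15, chromosome 7, 27591552 to 27640826, plus strand) encodes the insulin-responsive isoform of the Akt kinase. In Esr1 glands Akt2 averaged 56.6 ± 7.66, 42 ± 8.62 and 55.1 ± 17.2 TPM uninduced at 12, 18 and 24 months, 50.1 ± 9.36 and 46.2 ± 8.4 TPM after 1 week at 12 and 18 months, 53.5 ± 12.6 and 54.1 ± 6.93 TPM after 6 and 12 months at 24 months, and 45.9 ± 11.8 TPM after 18 months at 30 months (SD, n = 3 each). In CYP19A1 glands Akt2 averaged 41.3 ± 16.8, 49.2 ± 9.94 and 59.5 ± 6.63 TPM uninduced at 12, 18 and 24 months, 34.7 ± 9.53 and 53 ± 13.2 TPM after 1 week at 12 and 18 months, 62.4 ± 11.1 and 66.4 ± 18.4 TPM after 6 and 12 months at 24 months, and 57.6 ± 6.28 TPM after 18 months at 30 months (SD, n = 3 each). Its 4 highest means were the 24- and 30-month CYP19A1 groups, the same ones as for Slc2a4, and neighbouring means lay within the larger of their SDs. Over long-induced glands Akt2 had 34, 53 and 66.4 TPM over the 9 long-induced Esr1 libraries, against 51.1, 61.4 and 86.8 TPM over the 9 long-induced CYP19A1 libraries (lowest, median and highest). The ranges overlapped (log2 change -0.28, 95% interval -0.61 to 0.05, limma adjusted p = 0.383).

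Hk2 (ENSMUSG00000000628.10, chromosome 6, 82725025 to 82774454, minus strand) encodes the hexokinase that traps glucose in fat and muscle cells. In Esr1 glands Hk2 averaged 29.3 ± 15, 24.6 ± 16.7 and 29.4 ± 14.1 TPM uninduced at 12, 18 and 24 months, 18.8 ± 9.79 and 23.4 ± 1.93 TPM after 1 week at 12 and 18 months, 26.5 ± 4.66 and 29.9 ± 13 TPM after 6 and 12 months at 24 months, and 25.4 ± 9.67 TPM after 18 months at 30 months (SD, n = 3 each). In CYP19A1 glands Hk2 averaged 18.5 ± 3.96, 24.7 ± 9.8 and 36.8 ± 1.31 TPM uninduced at 12, 18 and 24 months, 11.4 ± 2.63 and 24.3 ± 6.41 TPM after 1 week at 12 and 18 months, 47.8 ± 11.8 and 44.5 ± 17 TPM after 6 and 12 months at 24 months, and 37.6 ± 3.37 TPM after 18 months at 30 months (SD, n = 3 each). The 4 highest means were again the CYP19A1 groups of 24 and 30 months, and 1 of 15 neighbour pairs differed by more than the larger SD, uninduced over 1-week-induced CYP19A1 glands at 12 months. The libraries of that 1-week group held 36.7% to 49.8% of TPM in ribosomal RNA genes, which lowers the TPM of other genes. Replicates 1 and 3 of the uninduced group held 67.2% and 22.2%. Hk2 had 17.5, 24.8 and 44.6 TPM over the 9 long-induced Esr1 libraries, against 27.4, 40.5 and 61.4 TPM over the 9 long-induced CYP19A1 libraries (lowest, median and highest). Most Esr1 libraries lay below most CYP19A1 libraries, with overlap (log2 change -0.66, SE 0.23, 95% interval -1.13 to -0.19, unadjusted p = 0.00735, limma adjusted p = 0.106).

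Pck1 (ENSMUSG00000027513.11, chromosome 2, 173153048 to 173159273, plus strand) encodes the key enzyme of glyceroneogenesis. In Esr1 glands Pck1 averaged 240 ± 105, 109 ± 57.7 and 332 ± 142 TPM uninduced at 12, 18 and 24 months, 205 ± 78.9 and 173 ± 43.8 TPM after 1 week at 12 and 18 months, 167 ± 55.8 and 278 ± 58.5 TPM after 6 and 12 months at 24 months, and 149 ± 95.6 TPM after 18 months at 30 months (SD, n = 3 each). In CYP19A1 glands Pck1 averaged 199 ± 173, 311 ± 166 and 229 ± 23 TPM uninduced at 12, 18 and 24 months, 186 ± 103 and 406 ± 294 TPM after 1 week at 12 and 18 months, 209 ± 69.4 and 207 ± 74.7 TPM after 6 and 12 months at 24 months, and 267 ± 88.7 TPM after 18 months at 30 months (SD, n = 3 each). Libraries of 1 group differed by large factors, as in CYP19A1 glands after 1 week at 18 months, where Pck1 read 288, 190 and 741 TPM. No neighbours among the 16 means differed by more than the larger of their SDs. In the long-induced comparison Pck1 had 84.4, 214 and 337 TPM over the 9 long-induced Esr1 libraries, against 133, 215 and 367 TPM over the 9 long-induced CYP19A1 libraries (lowest, median and highest). The ranges overlapped (log2 change -0.27, 95% interval -0.92 to 0.38, limma adjusted p = 0.71).

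Angptl8 (ENSMUSG00000047822.8, chromosome 9, 21835510 to 21837347, plus strand) showed the widest gap between the long-induced models. After 6 months of induction at 24 months it read 5.16, 1.85 and 2.33 TPM in Esr1 glands, against 5.5, 7.64 and 66 TPM in CYP19A1 glands. After 12 months it read 1.11, 3.48 and 1.08 TPM in Esr1 glands, against 114, 11.2 and 3.89 TPM in CYP19A1 glands. After 18 months it read 1.06, 1.68 and 2.34 TPM in Esr1 glands, against 49.7, 5.68 and 7.48 TPM in CYP19A1 glands. The models did not overlap at any of these 3 stages, and 1 CYP19A1 library of each stage stood far above the other two. The share of all genes without overlap at these stages is not given here. Of the 9 long-induced CYP19A1 libraries, 8 lay above the highest Esr1 library. Angptl8 was lower in long-induced Esr1 glands, at 2.23 ± 1.35 TPM against 30.1 ± 38.7 TPM in long-induced CYP19A1 glands (SD, n = 9; log2 change -2.42, SE 0.49, 95% interval -3.41 to -1.42, limma adjusted p = 0.00145). The call held when any 1 of the 18 libraries was left out (log2 change -2.74 to -1.98, adjusted p = 0.000206 to 0.00673) and after median-of-ratios rescaling (-2.27, adjusted p = 0.00442).

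Angptl8 was also low in the older uninduced Esr1 glands. Uninduced at 12 months it read 25, 6.97 and 5.39 TPM in Esr1 glands, against 34.4, 9.5 and 9.9 TPM in CYP19A1 glands. Uninduced at 18 months it read 3.31, 1.54 and 3.07 TPM in Esr1 glands, against 1.4, 11 and 13.5 TPM in CYP19A1 glands. Uninduced at 24 months it read 1.74, 1.97 and 1.61 TPM in Esr1 glands, against 22.2, 9.55 and 3.68 TPM in CYP19A1 glands. The libraries of the models overlapped at 12 and 18 months and not at 24 months. How many of all genes have no overlap at 24 months is not given here. After 1 week of induction Angptl8 read 18.3, 6.55 and 5.93 TPM in Esr1 glands, against 4.11, 3.56 and 8.79 TPM in CYP19A1 glands, at 12 months. At 18 months it read 3.7, 7.39 and 15.4 TPM in Esr1 glands, against 4.57, 4.59 and 5.22 TPM in CYP19A1 glands, again with overlap. Averaged over uninduced ages the model difference was -1.18 (SE 0.49, 95% interval -2.17 to -0.18, unadjusted p = 0.0214, limma adjusted p = 0.197), and it passed over nuclear protein-coding TPM (-1.65, adjusted p = 0.0288). Whether long induction changed the gap was tested at 24 months as the difference between the models in their long response. It was -0.49 for Angptl8 (95% interval -2.60 to 1.62) and -0.35 for Slc2a4 (95% interval -1.22 to 0.53), with limma adjusted p = 1 for both. In that test 0% of all genes passed, 0 of 9 members passed and none had an unadjusted p under 0.05.

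Angptl8 lies inside Dock6 (21799860 to 21852635), a gene on the other strand that encodes a guanine nucleotide exchange factor. The strand setting of the counting is not given in the sources used here, so reads of the pair cannot be told apart with certainty. Dock6 stood at 7.90 ± 2.29 TPM in long-induced Esr1 glands and 10.6 ± 1.72 TPM in long-induced CYP19A1 glands (SD, n = 9; log2 change -0.41, SE 0.197, limma adjusted p = 0.268). In the library with the highest Angptl8, 114 TPM, Dock6 read 13.6 TPM. Opposite-strand genes also overlap Slc2a1, Insr, Irs1, Irs2 and Hk2, and none overlaps Slc2a4, Akt2 or Pck1.

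**Figure D2:**
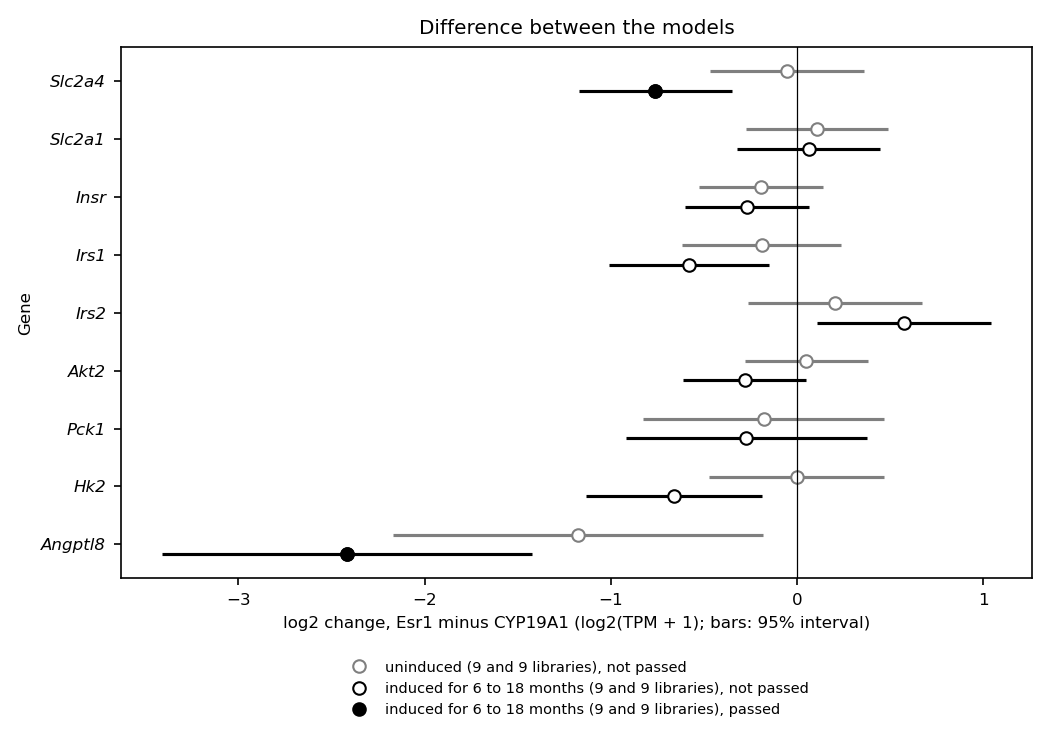
Log2 change (Esr1 minus CYP19A1, on log2(TPM + 1)) of each gene in uninduced glands (grey) and in glands induced for 6 to 18 months (black), with 95% intervals from limma, 9 libraries per model in each; filled points passed at the adjusted threshold. Angptl8 (-2.42) and Slc2a4 (-0.76) passed in long-induced glands, and Irs2 (0.58) lay on the other side of 0.

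Of the 9 members, 7 had a negative and 2 a positive change in long-induced Esr1 glands, with a median log2 change of -0.28 against -0.12 over all 20209 genes. The 9 pathway lists (insulin receptor signalling, its brakes, GLUT4 vesicle traffic, glucose transporters, glycolysis, glyceroneogenesis and gluconeogenesis, glycogen, ANGPTL and lipoprotein lipase, and insulin-responsive lipogenic regulators) hold 122 genes, of which 118 were tested. Of these, 9 were lower and 0 higher in long-induced Esr1 glands, where 2.97% of all genes were lower and 1.18% higher. The glycogen list had 3 of 11 lower, with a list median of -0.55. Gbe1, the glycogen branching enzyme gene, had a median of 14.9 TPM (10.4 to 23.4) in long-induced Esr1 glands, against 31.4 TPM (26.6 to 37.5) in long-induced CYP19A1 glands (log2 change -0.96, limma adjusted p = 0.000329). Its 9 Esr1 libraries lay below all 9 CYP19A1 libraries. Pygl, the gene for the liver form of glycogen phosphorylase, had a median of 16.2 TPM (12.7 to 41.9) in long-induced Esr1 glands, against 51.1 TPM (28.9 to 78.5) in long-induced CYP19A1 glands (log2 change -1.27, limma adjusted p = 0.000275). Ppp1r3b, which targets protein phosphatase 1 to glycogen, had a median of 1.31 TPM (0.59 to 5.76) in long-induced Esr1 glands, against 6.62 TPM (2.63 to 17.4) in long-induced CYP19A1 glands (log2 change -1.61, limma adjusted p = 0.00173).

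Of the 8 lipogenic regulators, 2 were lower. Mlxipl, which encodes the glucose-sensing transcription factor ChREBP, had a median of 12.3 TPM (9 to 20.3) in long-induced Esr1 glands, against 26.1 TPM (20.7 to 38.3) in long-induced CYP19A1 glands (log2 change -1.03, limma adjusted p = 0.00145), with no overlap. Thrsp, a lipogenic gene known to respond to thyroid hormone and carbohydrate, had a median of 93.6 TPM (23.8 to 260) in long-induced Esr1 glands, against 267 TPM (90 to 404) in long-induced CYP19A1 glands (log2 change -1.21, limma adjusted p = 0.0431). Of the 7 tested genes of glyceroneogenesis and gluconeogenesis, Pcx and Gpd1 were lower. Pcx, pyruvate carboxylase, had a median of 62 TPM (45.9 to 108) in long-induced Esr1 glands, against 111 TPM (64.7 to 136) in long-induced CYP19A1 glands (log2 change -0.72, limma adjusted p = 0.0434). Gpd1, which makes glycerol 3-phosphate from a glycolytic intermediate, had a median of 106 TPM (81.4 to 283) in long-induced Esr1 glands, against 228 TPM (132 to 375) in long-induced CYP19A1 glands (log2 change -0.95, limma adjusted p = 0.0321). The remaining calls were Slc2a4, on both transporter lists, and Angptl8. On the deposited scale none of the 29 genes of insulin receptor signalling, the 11 brakes or the 20 genes of glycolysis passed with limma (5, 3 and 3 of them had an unadjusted p under 0.05). After rescaling and without the libraries rich in ribosomal RNA, Gbe1, Pygl, Ppp1r3b, Mlxipl and Angptl8 passed, with log2 changes of -0.80 and -0.89, -1.11 and -1.22, -1.49 and -1.55, -0.88 and -0.90, and -2.27 and -2.44. Pcx, Gpd1, Thrsp and Slc2a4 passed under neither (adjusted p = 0.0638 to 0.112). Of all genes, 9.72% passed after rescaling and 4.03% without the libraries rich in ribosomal RNA. Over the 118 pathway genes, 2 were higher and 9 lower in long-induced Esr1 glands after rescaling, and 1 was higher and 5 lower without those libraries. The higher ones were Irs2, in both, and Foxo3, which encodes a forkhead factor that Akt holds out of the nucleus (0.42, limma adjusted p = 0.00746 after rescaling). Thus 2 genes of insulin receptor signalling were higher and 1, Irs1, lower after rescaling. Of the 11 brakes 2 were lower after rescaling: Inppl1, which encodes the lipid phosphatase SHIP2 (-0.27, limma adjusted p = 0.0226), and Socs1, a suppressor of cytokine signalling (-0.28, adjusted p = 0.0186). Pparg, the master regulator gene of adipocytes, was lower after rescaling as well (-0.58, adjusted p = 0.034), while none of the 20 genes of glycolysis passed in either.

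**Figure D3:**
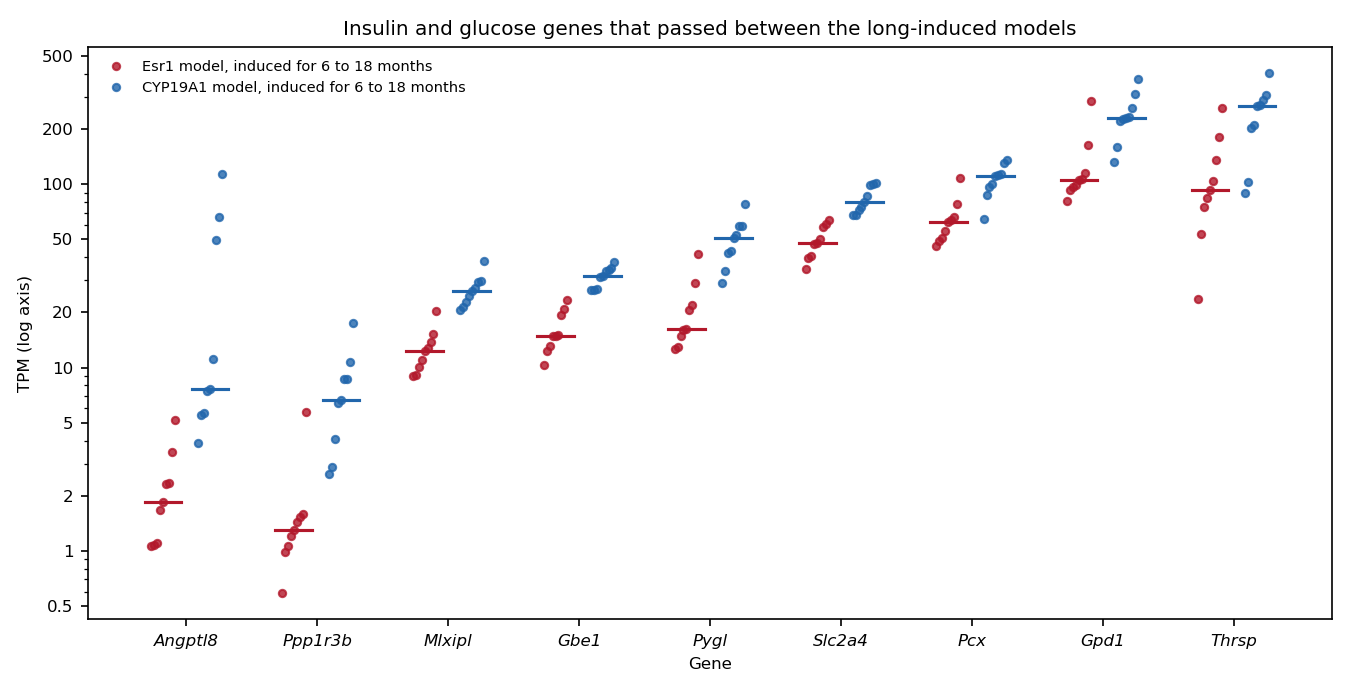
TPM (log axis) of the 9 pathway genes that passed between the models in glands induced for 6 to 18 months, with 9 Esr1 libraries (red, left) and 9 CYP19A1 libraries (blue, right) per gene; points are libraries and bars medians. All 9 genes, shown because they passed in this comparison, are lower in the Esr1 model, and Slc2a4, Gbe1 and Mlxipl show no overlap. The share of all genes without overlap is not given here.

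Marker genes of cell types are set beside the same comparison, and their part in these results was not tested beyond fits with a marker score as a covariate. The white adipocyte genes summed to 2610 to 7530 TPM in long-induced Esr1 glands and 3440 to 8800 TPM in long-induced CYP19A1 glands, and 0 of 10 passed (3 had an unadjusted p under 0.05). The 12 skeletal muscle genes summed to 8990 to 29200 TPM in Esr1 glands and 16300 to 34600 TPM in CYP19A1 glands, and 0 passed (1 had an unadjusted p under 0.05). The 8 brown adipocyte genes summed to 164 to 522 TPM in Esr1 glands and 321 to 707 TPM in CYP19A1 glands, and 1 passed as lower: Ucp1, the uncoupling protein gene, averaged 21.9 ± 56.1 TPM in Esr1 glands and 63.7 ± 55.4 TPM in CYP19A1 glands (SD, n = 9; log2 change -3.36, limma adjusted p = 0.0162). Of 6 endothelial genes, which summed to 59.3 to 157 TPM in Esr1 glands and 86.9 to 221 TPM in CYP19A1 glands, 1 passed as lower (3 had an unadjusted p under 0.05). This was Kdr, the gene for a receptor of vascular endothelial growth factor, at 13.6 ± 3.69 TPM in Esr1 glands and 22.6 ± 5.7 TPM in CYP19A1 glands (SD, n = 9; -0.70, limma adjusted p = 0.0267). Basal genes summed to 59.1 to 173 TPM in Esr1 glands and 55.4 to 166 TPM in CYP19A1 glands (0 of 6 passed, 3 with an unadjusted p under 0.05). Macrophage genes summed to 161 to 527 TPM in Esr1 glands and 113 to 532 TPM in CYP19A1 glands (0 of 7, 0 with an unadjusted p under 0.05). Fibroblast genes summed to 289 to 1410 TPM in Esr1 glands and 447 to 1800 TPM in CYP19A1 glands (0 of 6, 3 with an unadjusted p under 0.05). Luminal genes summed to 179 to 663 TPM in Esr1 glands and 139 to 486 TPM in CYP19A1 glands, and 0 of 8 passed (4 had an unadjusted p under 0.05). Liver genes summed to 2 to 4.88 TPM in Esr1 glands and 2.37 to 9.5 TPM in CYP19A1 glands, and 0 of the 2 tested passed (0 had an unadjusted p under 0.05), with Alb, the albumin gene, at 0.89 to 2.76 TPM in Esr1 glands and 0.84 to 6.16 TPM in CYP19A1 glands. With the white adipocyte, skeletal muscle or luminal score in the fit, Slc2a4 (log2 change -0.60 to -0.68) and Angptl8 (-2.35 to -2.18) both passed. With the brown adipocyte score Angptl8 passed (-2.20, limma adjusted p = 0.02) and Slc2a4 did not (-0.66, adjusted p = 0.148).

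Whether induction itself moved these genes was asked by 8 comparisons of induced with uninduced glands of the same age. With limma, 0 of 9 members passed in any of them. The share of all genes that passed in the Esr1 model was 0.0099% after 1 week at 12 months, 0% after 1 week at 18 months, 0% after 6 months and 0.00495% after 12 months. In the CYP19A1 model it was 0%, 0%, 0% and 0.0198% in the same order, the last with 0.0148% higher after induction. Over these 8 comparisons 1 member value had an unadjusted p under 0.05: Slc2a4 averaged 40.2 ± 12.9 TPM after 1 week of Esr1 induction at 12 months and 69.7 ± 32.4 TPM uninduced (SD, n = 3; log2 change -0.74, SE 0.35, 95% interval -1.46 to -0.03, limma adjusted p = 0.754). The induced and uninduced libraries overlapped. Averaged over the 4 comparisons of a model, 0 of 9 passed and none had an unadjusted p under 0.05 (background 0% in Esr1 and 0% in CYP19A1). The averaged intervals bound the size: Slc2a4 had -0.24 (-0.64 to 0.16) in Esr1 and -0.03 (-0.43 to 0.37) in CYP19A1. Angptl8 had 0.40 (-0.56 to 1.36) in Esr1 and -0.08 (-1.04 to 0.88) in CYP19A1. In the CYP19A1 comparison at 12 months, Insr, Irs1, Irs2 and Slc2a1 passed as lower after induction (log2 change -0.67 to -1.31) when uninduced replicate 1, with 67.2% ribosomal RNA, was left out. Without that library 12421 genes, or 61.5% of all, passed in this comparison, so 4 of 9 members is below that background. The induced libraries there held 36.7% to 49.8%. The difference between the models in their 1-week response passed for 0% of genes and for 0 of 9 members, with none at an unadjusted p under 0.05.

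Age was compared in uninduced glands. Between 24 and 12 months 0 of 9 members passed with limma in the Esr1 model (background 0.574%, with 0.247% lower), in the CYP19A1 model (4.24%, with 4.18% higher) or averaged over the models (4.68%, with 4.12% higher and 0.564% lower). After rescaling the genes that passed numbered 171 higher and 184 lower at 24 months in the Esr1 model, against 66 and 50 on the deposited scale. In the CYP19A1 model they numbered 39 higher and 28 lower after rescaling, against 844 and 13, and the median change of all genes there was -0.01 after it, against 0.22. Averaged over the models they numbered 972 higher and 873 lower after rescaling, against 832 and 114. Angptl8 averaged 1.77 ± 0.182 TPM at 24 months and 12.5 ± 10.9 TPM at 12 months in Esr1 glands (SD, n = 3), with no overlap (log2 change -1.99, SE 0.85, 95% interval -3.71 to -0.27, unadjusted p = 0.0247, adjusted p = 0.494). In CYP19A1 glands it averaged 11.8 ± 9.48 TPM at 24 months and 17.9 ± 14.2 TPM at 12 months, with overlap. Averaged over the models the change was -1.30 (95% interval -2.51 to -0.08, unadjusted p = 0.0373, adjusted p = 0.273). In CYP19A1 glands, 3 members had an unadjusted p under 0.05. Slc2a4 averaged 76 ± 5.3 TPM at 24 months and 40.4 ± 9.61 TPM at 12 months (log2 change 0.92, adjusted p = 0.16). Hk2 averaged 36.8 ± 1.31 TPM at 24 months and 18.5 ± 3.96 TPM at 12 months (0.97, adjusted p = 0.214). On the deposited scale both had no overlap between the ages, while Akt2 did (0.59, adjusted p = 0.319). Replicates 1 and 3 of 12 months held 67.2% and 22.2% of TPM in ribosomal RNA genes. The median-of-ratios factor of replicate 1 was 0.326, against 0.952 to 1.17 at 24 months, so Slc2a4 and Hk2 overlap after rescaling. The share of all genes without overlap between the ages is not given here, for these or for Angptl8. All 12 skeletal muscle genes were higher at 24 months in CYP19A1 glands (median log2 change 3.98). With their score in the fit Hk2 turned to -0.10 and Slc2a4 was at 0.23 (limma adjusted p = 0.639). After rescaling Slc2a4 was at 0.53, Hk2 at 0.58 and Akt2 at 0.20, and over nuclear protein-coding TPM at 0.42, 0.48 and 0.09. None of the 3 passed in these fits. Without replicate 2 of the 12-month CYP19A1 glands, Slc2a4 (1.10), Akt2 (0.88) and Insr (0.93) passed as higher at 24 months. In that fit 3374 genes, or 16.7% of all, passed. Replicate 2 held 0.122% of TPM in ribosomal RNA genes, and the replicates left at 12 months held 67.2% and 22.2%, which lowers the TPM of other genes. The difference between the models in the 24-month against 12-month change was -1.16 for Slc2a4 (unadjusted p = 0.0255, adjusted p = 0.766), and 0 of 9 members passed against 0.0396% of all genes.

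Other genes of these pathways did pass with age, averaged over the models. Of 20 genes of glycolysis 7 were higher at 24 months (median 0.72, against 0.07 over all genes), among them Eno3, Pgam2 and Pfkm, which encode muscle forms of enolase, phosphoglycerate mutase and phosphofructokinase. Pfkm averaged 244 ± 98.5 TPM at 24 months and 79.4 ± 84.3 TPM at 12 months (SD, n = 6; log2 change 2.23, limma adjusted p = 0.0132). Of 11 glycogen genes 3 were higher (Gyg, Ugp2 and the muscle phosphorylase gene Pygm) and 2 lower. Pygl averaged 35 ± 13.4 TPM at 24 months and 80.4 ± 36.3 TPM at 12 months (-1.16, adjusted p = 0.0107). Ppp1r3b averaged 2.75 ± 1.39 TPM at 24 months and 13.9 ± 17.5 TPM at 12 months (-1.56, adjusted p = 0.0172). The fructose transporter gene Slc2a5 averaged 0.985 ± 0.857 TPM at 24 months and 4.85 ± 3.81 TPM at 12 months (-1.46, adjusted p = 0.00828). Pcx averaged 89.7 ± 32.9 TPM at 24 months and 182 ± 58.8 TPM at 12 months (-1.03, adjusted p = 0.0149). Pygl, Ppp1r3b and Pcx, lower here, are among the genes that were lower in long-induced Esr1 glands. Grb14, which encodes an inhibitor of the insulin receptor, averaged 17 ± 3.48 TPM at 24 months and 7.5 ± 2.75 TPM at 12 months (1.13, adjusted p = 0.0121). All 12 skeletal muscle genes were higher at 24 months in this average (median 2.60), and their part in the higher genes was not tested. Of the 118 pathway genes, 13 were higher and 4 lower at 24 months on the deposited scale, 10 higher and 12 lower after rescaling, and 7 higher and 7 lower without the libraries rich in ribosomal RNA. The share of all genes that passed was 4.68%, 9.13% and 5.64% in these 3 settings. Pfkm, Eno3, Slc2a5, Pcx and Pygl passed in all 3. In the last setting only replicate 2 remains of the uninduced CYP19A1 glands of 12 months, so its calls rest on that library for that group. Ppp1r3b, Grb14, Gyg and Ugp2 did not pass without those libraries, and Pgam2, Ugp2 and Pygm did not after rescaling.

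Between 18 and 12 months 0 of 9 members passed in Esr1 glands (background 0%) or CYP19A1 glands (0.0099%). Pck1 averaged 109 ± 57.7 TPM at 18 months and 240 ± 105 TPM at 12 months in Esr1 glands, the one member value with an unadjusted p under 0.05 (log2 change -1.17, SE 0.55, 95% interval -2.29 to -0.05, limma adjusted p = 1). With the white adipocyte score as a covariate that value was -0.12 (adjusted p = 0.884), and without replicate 3 of the 18-month glands it was -0.75. Glands of 30 months after 18 months of induction were set against glands of 24 months after 12 months, and again 0 of 9 passed in Esr1 glands (0.139%, with 0.129% lower) or CYP19A1 glands (0%). In Esr1 glands Irs2 averaged 9.72 ± 3.29 TPM at 30 months and 18.6 ± 4.87 TPM at 24 months (log2 change -0.89, SE 0.40, 95% interval -1.70 to -0.09, adjusted p = 0.298). Slc2a1 averaged 5.27 ± 1.98 TPM at 30 months and 8.81 ± 1.37 TPM at 24 months (log2 change -0.69, SE 0.33, 95% interval -1.35 to -0.02, adjusted p = 0.312). On the deposited scale both had no overlap between the groups and an unadjusted p under 0.05, as 15.9% of all genes had. The median change of all genes there was -0.36, and the share without overlap is not given here. The lowest Irs2 (5.97 TPM) and Slc2a1 (3.49 TPM) were in replicate 3 of 30 months, with 50.3% of TPM in ribosomal RNA genes. Median-of-ratios factors were 0.569 to 0.918 at 30 months and 1.09 to 1.11 at 24 months, so both genes overlap after rescaling. In CYP19A1 glands no member had an unadjusted p under 0.05 in either comparison.

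Setting the models against each other at each single stage, 3 libraries against 3, called members at 1 stage only. After 1 week at 12 months Slc2a1 (log2 change 1.12), Irs1 (1.09) and Irs2 (1.47) were higher in Esr1 glands with limma. There 61.9% of all genes passed, so 3 of 9 members is below that background, and the CYP19A1 libraries held 36.7% to 49.8% ribosomal RNA. None of the 9 passed there after median-of-ratios rescaling, which instead called Insr (-0.74) and Pck1 (-1.67) lower in uninduced Esr1 glands of 18 months, Insr (-0.74) lower after 1 week at 18 months and Irs2 (1.15) higher after 12 months. The share of all genes that passed after rescaling was 9.05%, 6.5% and 1.46% at these 3 stages, and 6.02% after 1 week at 12 months. On the deposited scale 0 of 9 passed at the other stages, where the background was 0.718%, 0.792% and 0.614% uninduced at 12, 18 and 24 months, 1.34% after 1 week at 18 months, and 0.826%, 0.826% and 0.52% after 6, 12 and 18 months. At the 3 long-induced stages Angptl8 had log2 changes of -2.00, -2.82 and -2.43, each with an unadjusted p under 0.05 and none past the adjusted threshold (adjusted p = 0.161 to 0.617). The same held for Slc2a4 after 6 and 12 months (-0.87 and -0.73, limma adjusted p = 0.551 and 0.902). It also held for Angptl8 in uninduced glands of 24 months (-1.92, limma adjusted p = 0.755). In uninduced glands of 18 months 2 members, both lower in Esr1 glands, had an unadjusted p under 0.05. After 12 months 1 member did so as higher.

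The members were also compared by how they vary over the 48 libraries, as Pearson's r of rescaled log2 values, a description over libraries that share groups and tissue makeup. Of 14073 protein-coding genes, those most like Slc2a4 were Ank (0.946), Hk2 (0.935) and Ecsit (0.925). Those most like Hk2 were Ecsit (0.940), Coq9 (0.938) and Slc2a4 (0.935), and those most like Akt2 were Slc2a4 (0.919), Cdk16 (0.898) and Tmem143 (0.885). Slc2a4, Hk2 and Akt2 thus varied together. Insr was nearest to Prkce (0.906), Dennd5b (0.901) and Kansl3 (0.885), and Irs1 to Adrb3 (0.800), Gpx3 (0.799) and Kif5c (0.792). Irs2 was nearest to Errfi1 (0.818), Foxo3 (0.783) and Net1 (0.749), and Pck1 to Pde3b (0.826), Osbpl11 (0.825) and Chst15 (0.785). Slc2a1 was nearest to Lrp8 (0.695), Rab11fip5 (0.681) and Aqp3 (0.657). Angptl8 was nearest to Prrt4 (0.778), Ppp1r3b (0.757) and Pth1r (0.730), and the lowest r of any member pair was that of Irs2 and Angptl8 (-0.664).

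The libraries at both ends of the skeletal muscle sum differed in Slc2a4 and Hk2. In the library with the highest muscle sum, 42800 TPM, an uninduced Esr1 gland of 18 months, Slc2a4 read 79.1 TPM and Hk2 43.9 TPM. In the library with the lowest, 169 TPM, a CYP19A1 gland after 1 week at 12 months, they read 30.95 and 10.04 TPM. That library held 36.7% of TPM in ribosomal RNA genes. Libraries between these ends did not keep this order strictly, and the highest Slc2a4, 107 TPM, was at a muscle sum of 16200 TPM. Angptl8 read 3.07 TPM in the library with the highest muscle sum and 8.79 TPM in that with the lowest, the opposite order. How far muscle RNA sets these values was not tested beyond the fits with its score. In the 3 long-induced CYP19A1 libraries with the highest Angptl8 (114, 66.0 and 49.7 TPM) the muscle sums were 21300, 30200 and 25400 TPM and the brown adipocyte sums 330, 370 and 707 TPM.

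**Figure D4:**
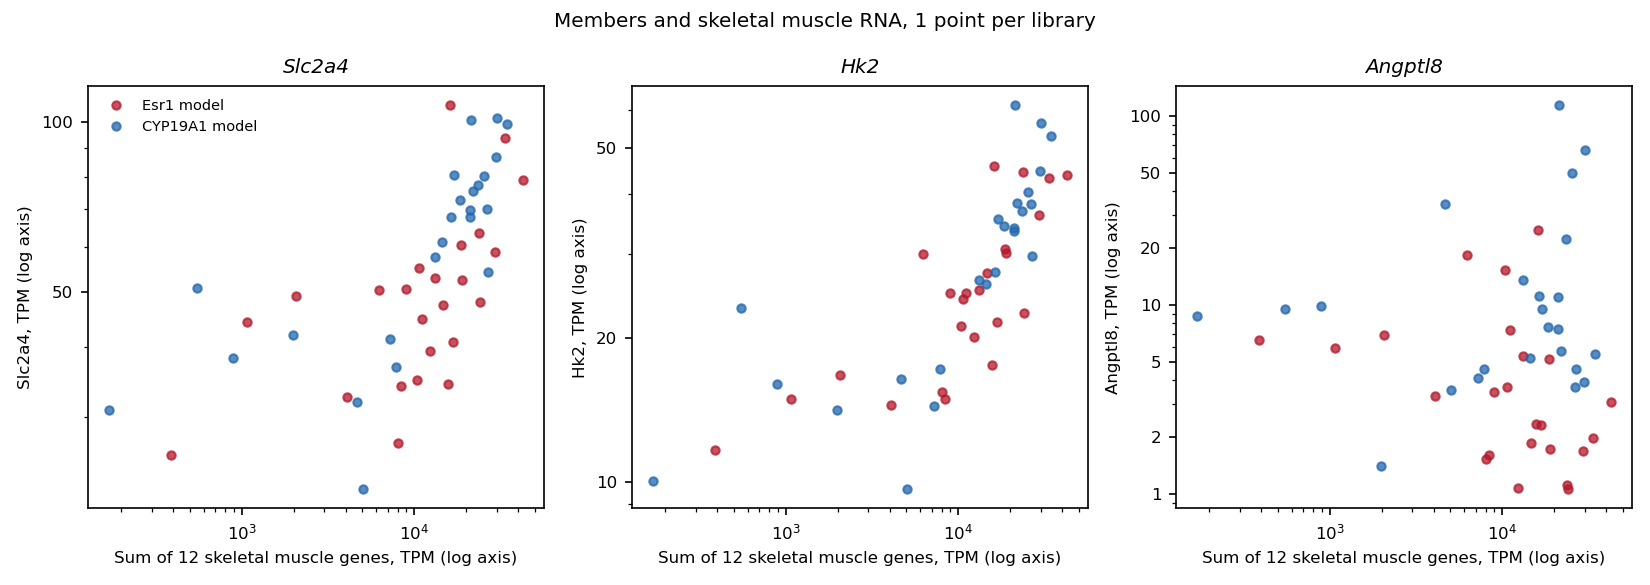
TPM of Slc2a4, Hk2 and Angptl8 (log axes) against the summed TPM of 12 skeletal muscle genes, 1 point per library (24 Esr1 in red, 24 CYP19A1 in blue). Slc2a4 and Hk2 are higher in the library with the highest sum (42800 TPM) than in that with the lowest (169 TPM), and Angptl8, which spans 1.06 to 114 TPM, is lower in it. The library with the lowest sum held 36.7% of TPM in ribosomal RNA genes.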

How the data were processed

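The deposited values are TPM per gene in 48 libraries, made by the authors from stranded, ribosomal RNA-depleted total RNA sequenced single-end (75 bp, 50 M reads or more), per the labels' protocols. Build mm10 and the tools RSEM 1.3.1, STAR 2.7.9a, Trim Galore 0.6.5 and FastQC 0.11.9 are named in the submitters' processing notes. The annotation release is not given in the sources used here. Of 55487 identifiers 55094, and all 9 members, matched GENCODE M21 with version, which gives the positions. TPM keep no depth, so each library's depth is unknown.

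A gene was tested if 3 or more libraries had 1 TPM or more of it. One mean per group was fitted to log2(TPM + 1) over all 48 libraries with limma 3.58.1 in R 4.3.3 (moderated, two-sided, intensity trend). The threshold was an adjusted p under 0.05 (Benjamini-Hochberg) over all 20209 genes of a comparison. Log2 changes understate those of scarce genes. There were 22 comparisons, and 8 between the models at single stages were added. The fit was tested on simulated data. Labels do not say that replicates are separate mice, so p-values measure the spread between libraries. Titles of the 24- and 30-month libraries are written differently, so any difference in their handling cannot be told apart from age. Members, gene lists and tests were chosen with earlier results of these data known. All members were named with every group, with up to 4 passing genes per pathway list and the 3 most alike genes. Changes with an unadjusted p under 0.05 were given in full for the 22 comparisons, and by value or by count at single stages. Alternatives were another pseudocount, other filters, rescaling, coding-gene TPM, left-out libraries, marker covariates and a replicate block.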

Additional observations from a re-analysis of the deposited data

How the results depend on the processing

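Some member changes between the models at single stages with an unadjusted p under 0.05 are not in the tally that follows. They are 3 after 1 week at 12 months, 2 in uninduced glands of 18 months and 1, higher in Esr1 glands, after 12 months. The other 22 member changes with an unadjusted p under 0.05 were recomputed under the alternatives, which gave 502 values. Of these, 480 kept their direction and their side of the threshold, 8 lost the call, 13 gained one and 1 turned, namely Hk2 between 24 and 12 months in CYP19A1 glands, at -0.10 with the skeletal muscle score as a covariate against 0.97. The members that passed between the long-induced models numbered 2 on the deposited scale, 4 over nuclear protein-coding TPM (Slc2a4, Angptl8, Irs1 and Irs2), 5 when only the compared libraries were fitted (these and Hk2) and 1 with the brown adipocyte score (Angptl8). Between the uninduced models 0 passed, against 1 after rescaling (Insr), 3 over nuclear protein-coding TPM (Insr, Irs1 and Angptl8) and 2 without the libraries rich in ribosomal RNA (Insr and Irs1). Without those libraries only replicate 2 remains of the uninduced CYP19A1 glands of 12 months, so values that use this group rest on that library. It held the highest Irs1 of all 48 libraries, 43.9 TPM. Irs1 was then at -0.76 between 24 and 12 months averaged over the models. All genes called between the long-induced models numbered 839, against 1964 after rescaling, 1422 over nuclear protein-coding TPM, 1595 with only the compared libraries and 5206 with the luminal score. Between the uninduced models they numbered 596, against 3392 after rescaling, 3583 over nuclear protein-coding TPM and 2569 without the libraries rich in ribosomal RNA. Between 24 and 12 months they numbered 857 in CYP19A1 glands, against 67, 22 and 7 in the same 3 settings, 116 in Esr1 glands, against 355, 147 and 266, and 946 averaged over the models, against 1845, 1291 and 1140. The causes of these moves were not tested.

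With single libraries left out, the count between the long-induced models ranged from 1 to 2. It ranged from 0 to 4 for 1 week of CYP19A1 induction at 12 months, from 0 to 3 for CYP19A1 glands of 24 against 12 months, and from 0 to 2 for the difference in the 1-week response, the last when CYP19A1 replicate 1 of the uninduced glands at 12 months was left out, where 34.6% of all genes passed. Angptl8 at 24 months after 12 months of induction passed between the models without CYP19A1 replicate 3 (log2 change -3.80, limma adjusted p = 0.0264).

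Replicate numbers marked no clear pairing of the libraries. Over 360 pairs with the same number the correlation of deviations ran from -0.496 to 0.400, with a median of 0.0081 and 109 over 0.1. Over 720 pairs with another number it ran from -0.551 to 0.567, with a median of -0.0105 and 181 over 0.1. With a replicate block Slc2a4 (-0.76, limma adjusted p = 0.0245) and Angptl8 (-2.42, adjusted p = 0.00149) passed between the long-induced models, 2 members as without it, and the block changed no member call.

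Since depth is unknown, no counting error can be given, and low values such as Angptl8 near 1 TPM carry an error that cannot be stated. The brown adipocyte and luminal scores and the single stages were chosen after seeing the data.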
